A study of Mus musculus with 6 samples.

Results

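The genes described here are guidance families other than Slit and Robo. They are the semaphorins with their plexin and neuropilin receptors, the ephrins with their Eph receptors, and the netrins with the DCC, neogenin and UNC5 receptors. The FLRT proteins, which bind UNC5 receptors, are included. All these genes were taken by symbol alone, as every row of the expression table whose symbol belongs to 1 of these families. This gave 60 of 18537 known-gene clusters. The expression table came from luminal progenitor cells of the mouse mammary gland, sorted by FACS as lineage-negative CD24lo CD29+ CD61+ cells from adult nulliparous females. Libraries gh03, gh09 and gh15 (*Robo1+/+*) were compared with libraries gh06, gh12 and gh18 (*Robo1-/-*), 3 per genotype. The *Robo1-/-* animals were homozygous for the germline *Robo1 tm1Matl* allele, so the gene was altered in every tissue and not in the sorted cells alone. Each library was poly(A)+ RNA of 2 animals, and *Robo1+/+* and *Robo1-/-* females were littermates or matched for age. The values measure RNA per sorted population, in which fewer cells of a type and less RNA per cell cannot be told apart.

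Guidance cues were first studied in growing axons, which they attract or repel through receptors that act on the actin cytoskeleton and on adhesion. Semaphorins signal through plexins, with neuropilins as co-receptors for the secreted class 3 semaphorins. Ephrins are bound to the membrane and meet Eph receptor tyrosine kinases on neighbouring cells, with signalling into both cells. Netrins are laminin-related secreted proteins whose receptors are DCC, neogenin and the UNC5 family, and FLRT proteins bind UNC5 receptors and latrophilins. In the mammary gland, netrin 1 and neogenin are known for holding cell layers together in the end buds of growing ducts, and EphA2 and EphB4 are known regulators of ductal growth.

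The recovered reads per library ranged from 9727191 to 17433868, and 3 reads, taken as the smallest number detected, correspond to normalized values of 2.35 to 4.38. *Robo1*, the targeted gene, stood at 289, 574 and 541 normalized reads in the *Robo1+/+* libraries against 130, 214 and 177 in the mutants, which did not overlap and left a mutant mean at 37.1% of *Robo1+/+* (log2 fold change -1.39, SE 0.36). The *Robo1-/-* replicate gh18 stood apart from the other 5 libraries, with low values for genes of high GC content, so values without it or after a correction for GC content are given beside those of all libraries. All 8 listed luminal progenitor markers were tested, and their summed normalized values were 85709 to 100198 in *Robo1+/+* and 45959 to 107296 in *Robo1-/-* libraries, with the lowest sum in gh18. *Krt8*, at 35984 to 41606 in *Robo1+/+* and 11181.5 in gh18, and *Krt18*, at 28162 to 29550 and 11521.5, weighed most in this low sum. *Cd14* was also lowest in gh18, at 1605. The transcripts of *Krt8*, *Krt18* and *Cd14* have a GC content of 56.9%, 56.4% and 53.2%. Their log2 fold changes were -0.52, -0.28 and -0.57 with all libraries and 0.13, 0.25 and -0.18 without gh18. After the GC correction they were 0.04, 0.22 and -0.37. Whether gh18 held fewer luminal progenitors was not tested. *Kit*, *Elf5*, *Aldh1a3*, *Itgb3* and *Lif* in gh18 lay within the range of the other libraries. The 8 markers of hormone-sensing luminal cells summed to 44157 to 55148 in *Robo1+/+* and 56875 to 69776 in *Robo1-/-* libraries, which did not overlap. However, *Prlr* and *Areg* made up most of each sum, and 1 of the 8, *Pgr*, had an unadjusted limma p under 0.05. *Tnfsf11* and *Cited1* had negative log2 fold changes (-2.94 and -1.01). Without gh18 these were -4.58 and 0.20, and after the GC correction -3.16 and 0.03. *Cited1* stood at 286 in gh18, and *Tnfsf11* at 1660 in gh03 and 0.92 in gh12. Sums of 10 basal markers were 1385 to 2980 against 1322 to 2142, with *Lgr6* the largest in each library (473 to 805). *Krt5*, *Krt14* and *Krt17* had log2 fold changes of -1.12, -1.00 and -1.04 (-0.64, -0.68 and -0.64 without gh18). *Cnn1*, *Trp63* and *Oxtr* had 0.34, 0.31 and 0.45, and the other basal markers lay between -0.34 and 0.25. Sums of 8 fibroblast markers were 710 to 841 against 325 to 1062, with *Dcn* at 88.9 in gh12 and 389 to 655 in the other libraries. Those of 7 leukocyte markers were 23.5 to 29.3 against 15.6 to 24.8, and those of 6 nerve and Schwann cell markers 1381 to 1892 against 502 to 1497. The part of these other cell types in the results below was not tested.

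Of the 60 guidance genes, 45 passed the filter on low reads and were tested: 15 of 19 semaphorins, 6 of 9 plexins, both neuropilins, all 5 A-type and 3 B-type ephrins, 4 of 6 EphA and 4 of 5 EphB receptors, 2 of 3 netrins, 2 of 3 UNC5 receptors, 1 of 3 FLRT proteins and, of *Dcc* and *Neo1*, *Neo1* alone. The other 15 were at or near the limit of detection. *Sema3a*, *Sema3g*, *Dcc*, *Epha3*, *Epha8*, *Unc5d* and *Flrt1* had at most 1 read in any library. The remaining 8 (*Sema3d*, *Sema4f*, *Plxna4*, *Plxnb3*, *Plxnc1*, *Ephb1*, *Ntn3* and *Flrt2*) had between 5 and 15 reads in their highest library. *Dcc*, the canonical attractive netrin receptor of axons, was thus not detectable at this depth, whereas its homologue *Neo1* ranged from 1362 to 2530 normalized reads.

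Levels of different genes were compared as the mean normalized value per kb of the longest coding transcript. *Epha2* was the most abundant of the 45 at 923 per kb, above 92.0% of all tested genes, followed by its ligand *Efna1* at 759, *Plxnb2* at 730 and *Sema4c*, a ligand of plexin B2, at 655. *Ntn1* followed at 362 per kb, *Plxnb1* at 310, *Ephb3* at 267 and *Neo1* at 237. The most abundant semaphorins were thus membrane-bound class 4 proteins, while the secreted class 3 members ranged from 0.0767 per kb for *Sema3a* to 76.2 for *Sema3c*. Among the receptors, the neuropilins were low, with *Nrp1* at 53.7 and *Nrp2* at 3.11 per kb. Both UNC5 receptors that were tested were low as well, with *Unc5b* at 28.4 and *Unc5c* at 1.00 per kb. *Flrt3* was the abundant FLRT gene at 152 per kb, against 1.24 for *Flrt2* and 0.0595 for *Flrt1*.

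**Figure D1:**
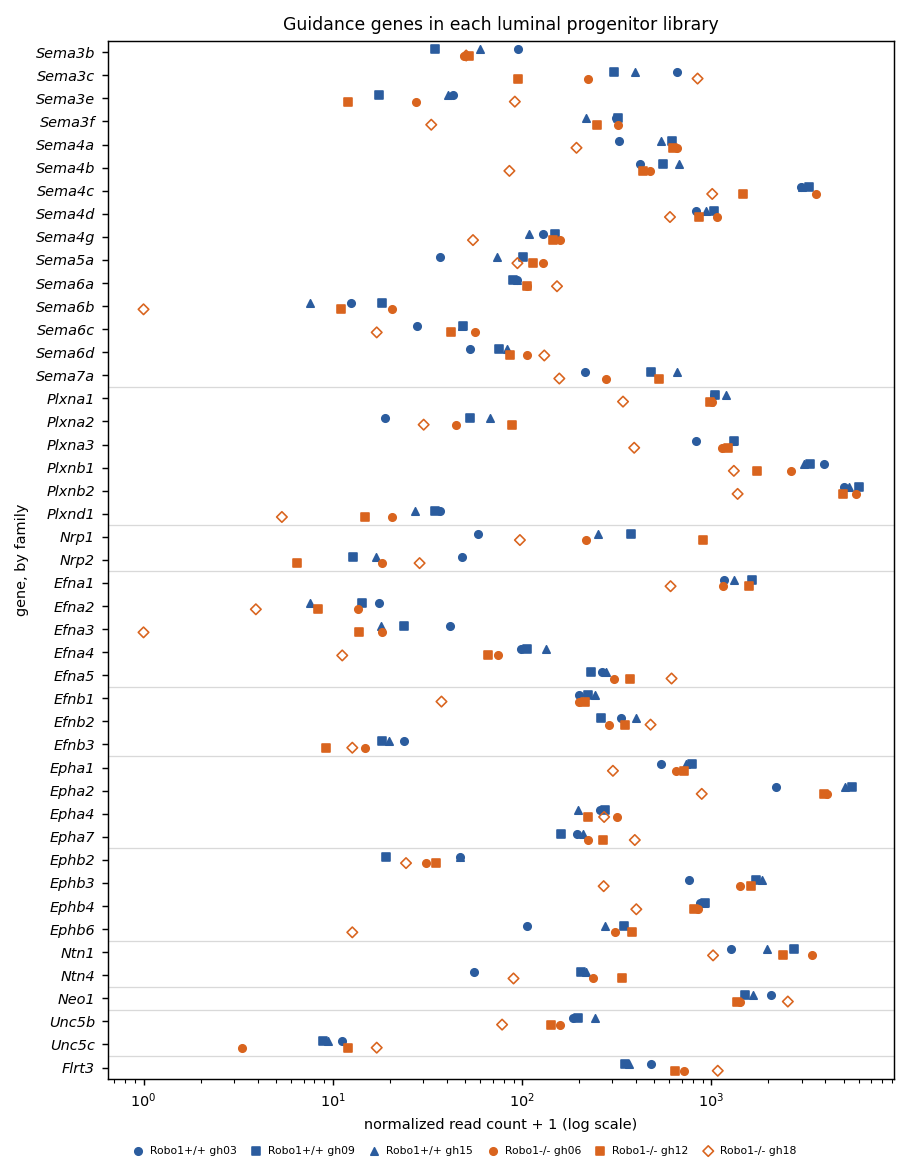
Normalized read count plus 1, on a log scale, of each of the 45 tested guidance genes in each of the 6 libraries, by family (grey lines separate families; blue, *Robo1+/+*; orange, *Robo1-/-*; open diamonds, replicate gh18). The open diamond lies lowest of the 6 libraries for 26 genes, such as *Plxnb2* at 1373, and highest for 10, such as *Flrt3* at 1078.

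Whether loss of *Robo1* goes along with other levels of these genes was tested with limma on log2(value + 1). No guidance gene passed an adjusted p of 0.05 (limma with Benjamini-Hochberg adjustment over 13692 genes), and the adjusted p of the 45 ranged from 0.86 to 1.00. In all, 0 of the 13692 genes passed, with 231 at an unadjusted p under 0.05. With edgeR 0 genes passed and 221 (1.61%) had an unadjusted p under 0.05, and with DESeq2 1 gene (0.0054%), which is no guidance gene, passed and 335 (1.81%) had an unadjusted p under 0.05. At an unadjusted limma p under 0.05 stood 3 of the 45 guidance genes, against 1.69% of all tested genes: *Plxnb1* and *Plxnd1*, lower in *Robo1-/-* (0.92% of all genes were), and *Flrt3*, higher (0.767%). After the GC correction 4 of the 45 stood there, against 1.57% of all genes with a GC value: *Efna4*, lower, and *Efna5*, *Flrt3* and *Ntn1*, higher (0.678% and 0.894% of all genes). Without gh18 there were 5 of 46, against 4.2% of all genes then tested: *Efna4*, *Plxnb1*, *Plxnd1* and *Sema3c*, lower (2.29%), and *Flrt3*, higher (1.91%). On the recovered reads, edgeR placed the same 3 genes under 0.05, 2 lower (0.876% of all genes) and 1 higher (0.738%), and DESeq2, which tested all 60, placed these and *Efna5* there, 2 lower (0.95%) and 2 higher (0.858%). On omitting other libraries, the count was 9 of 47 without gh06, where 6.44% of all genes were called, 1 of 46, *Flrt3*, without gh03 (0.95% of all genes), 2 of 45 without gh09 (1.26%), 2 of 46 without gh15 (0.847%) and 2 of 46 without gh12 (0.962%). With the GC correction and without gh18 it was 4 of 46, against 4.43%.

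For 12 of the 45 genes (26.7%) the 3 values of one genotype lay all above those of the other, against 9.41% of all tested genes. Of these, 7 were lower in *Robo1-/-* (*Plxna1*, *Plxnb1*, *Plxnd1*, *Efna4*, *Efnb3*, *Ephb4* and *Unc5b*) against 4.58% of all tested genes, and 5 were higher (*Sema6a*, *Sema6d*, *Efna5*, *Epha7* and *Flrt3*) against 4.83%. After the GC correction 8 of the 45 (17.8%) did not overlap, against 6.57% of all genes with a GC value. Only *Efna4* was then lower in *Robo1-/-* (3.14% of all genes were), and the other 7 (*Sema4g*, *Sema6a*, *Sema6c*, *Efna5*, *Epha7*, *Ntn1* and *Flrt3*) were higher (3.43%). For *Sema4g*, *Sema6c* and *Ntn1*, gh18 was the lowest library as deposited (54.0, 16.05 and 1018). After the correction it was the highest (log2 values 7.14, 6.58 and 11.47). The same change of gh18 from lowest to highest occurred for *Plxnb1*, *Ephb4* and *Unc5b*. Whether the correction went too far for gh18 in these genes was not tested. The lists of both directions include genes outside the naming rule, named after their values were seen.

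The log2 fold change (*Robo1-/-* minus *Robo1+/+*) was negative for 33 of the 45 genes and positive for 12, with a median of -0.40 against 0.00 over all tested genes. After the GC correction, 24 were negative and 21 positive, with a median of -0.04. Without gh18, 23 of the same 45 were negative and 22 positive, with a median of -0.02. The excess of negative fold changes was thus not present without this library. By family, as deposited, the median was -0.66 for the plexins, -0.77 for the B-type ephrins, -0.70 for the A-type ephrins, -0.57 for the EphB receptors and -0.23 for the semaphorins. Without gh18 the same medians were -0.07, -0.09, -0.22, 0.04 and 0.05. The netrins had a median of 0.30, the neuropilins 0.03, the EphA receptors -0.12 and the UNC5 receptors -0.47, and without gh18 these were 0.82, 0.17, 0.09 and -0.55.

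**Figure D2:**
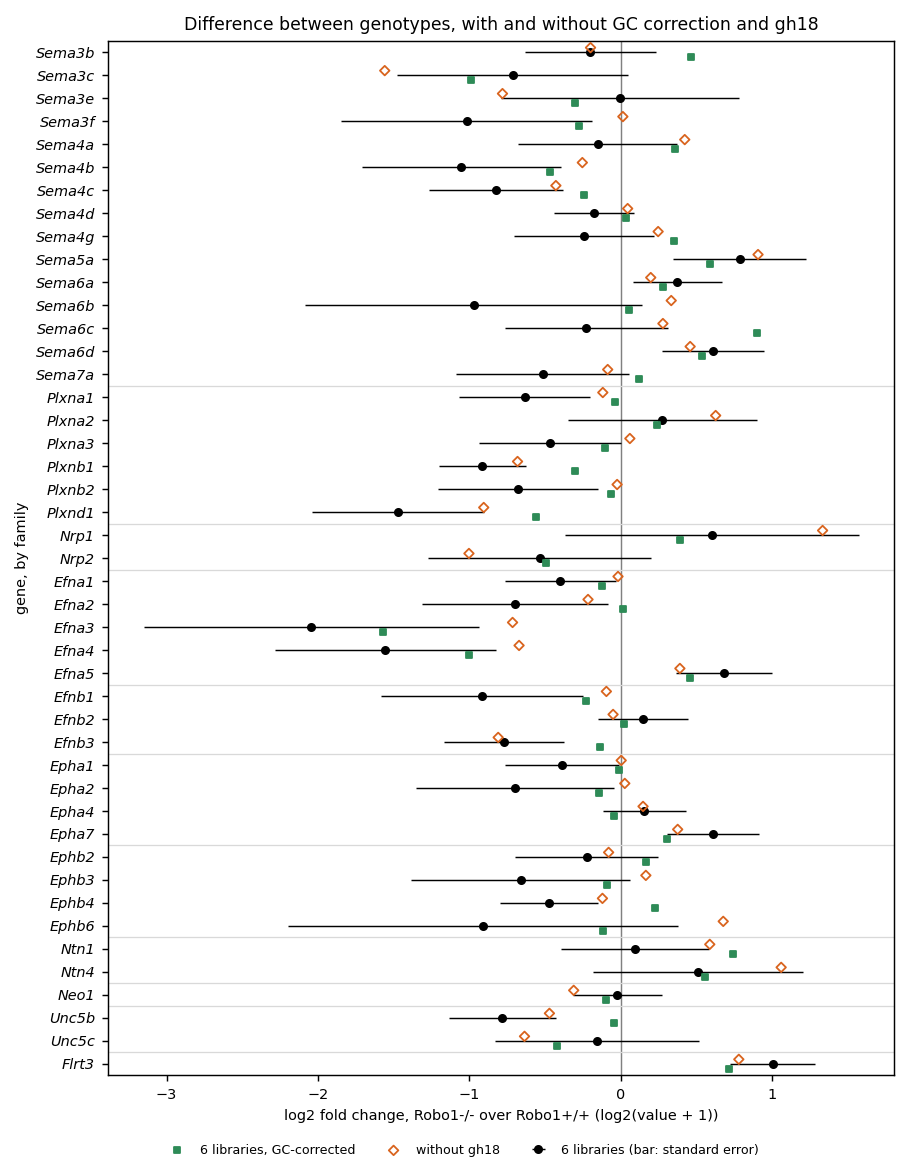
Log2 fold change (*Robo1-/-* minus *Robo1+/+*) of each tested guidance gene from all 6 libraries as deposited (with its standard error as a bar), after the GC correction, and without replicate gh18. Most points of the first kind lie left of 0 (33 of 45, median -0.40), while the other kinds scatter around 0 (medians -0.04 and -0.02). *Flrt3* lies to the right at 1.00, 0.71 and 0.78.

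The guidance genes are rich in G and C: the longest coding transcripts of the 45 had a median GC content of 56.5%, against 50.4% over all tested genes with a value. All 27 guidance genes with a GC content of at least 55% were lower in gh18 than in the mean of the other 5 libraries, by a log2 difference between -4.42 and -0.12 (median -1.55). Of these 27, 26 had a negative log2 fold change between the genotypes. Among the 14 with a GC content under 50%, 12 were higher in gh18 (median log2 difference 0.70) and 10 had a positive fold change. As a description over genes, which share libraries and are not independent, the Spearman correlation of the gh18 difference with GC content was -0.72 over the 45 guidance genes and -0.81 over 12531 genes. The same correlation of each other library lay between 0.06 and 0.60 over the 45 genes. For those libraries the mean of the other 5 includes gh18, so these correlations are not independent of the gh18 trend. The libraries share the poly(A)+ protocol, and a source of the GC trend was not tested.

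**Figure D3:**
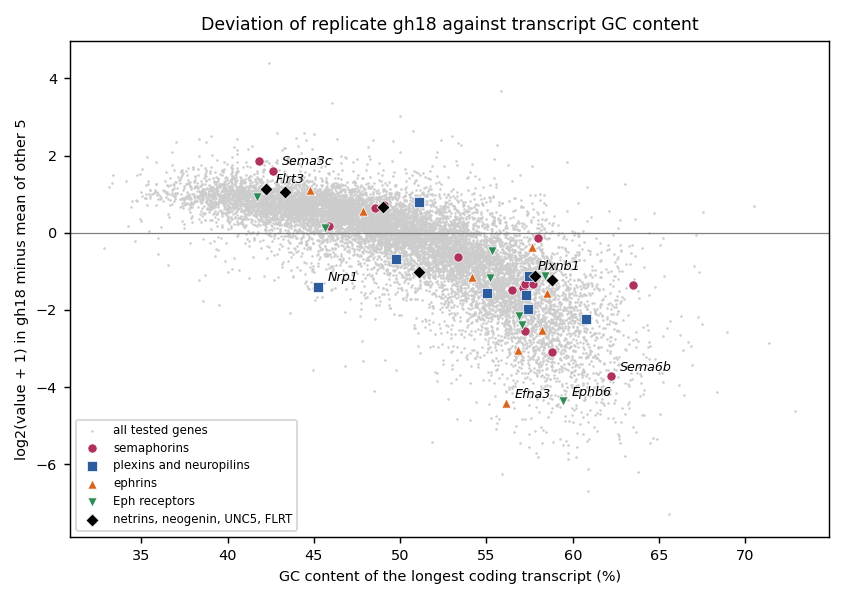
Log2(value + 1) in replicate gh18 minus the mean of the other 5 libraries, against the GC content (%) of the longest coding transcript, for all tested genes with a GC value (grey dots) and the 45 guidance genes (coloured by family). The guidance genes follow the slope of the grey cloud, with all 27 of at least 55% GC below 0 and 12 of the 14 under 50% above 0.

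Among the semaphorins, the ligands of plexins, 12 of 15 tested genes had a negative and 3 a positive fold change, and none had an unadjusted limma p under 0.05. The log2 fold changes ran from -1.05 for *Sema4b* (-0.25 without gh18) to 0.79 for *Sema5a* (0.91 without gh18). *Sema4c*, chromosome 1 from 36605487 to 36615194 of NCBI37/mm9, had a normalized read count of 2978 in gh03, 3275 in gh09 and 3000 in gh15, all *Robo1+/+*, against 3555 in gh06, 1475 in gh12 and 1008 in gh18, all *Robo1-/-*, and this order of libraries is kept for all genes below. The *Robo1-/-* libraries lay on both sides of the tight *Robo1+/+* group, and the log2 fold change was -0.82 (SE 0.44, unadjusted limma p = 0.11, exact permutation p = 0.4). It was -0.43 without gh18 and -0.24 after the GC correction, both with an unadjusted limma p over 0.05, and -1.34 without gh06, under 0.05. *Sema4d*, the ligand of plexin B1, had 830, 1026 and 934 against 1062, 861 and 603. Its groups overlapped, and the log2 fold change of -0.18 (SE 0.26) became 0.03 after the GC correction.

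The secreted *Sema3c*, named after its values were seen, had 655, 305 and 391 in *Robo1+/+* against 221, 94.4 and 843 in *Robo1-/-*. Replicate gh18 was the highest of all 6 libraries and the other 2 *Robo1-/-* libraries were the lowest. With all libraries the log2 fold change was -0.71 (SE 0.76), and without gh18 it was -1.56, at an unadjusted limma p under 0.05. This transcript has a GC content of 42.7%, and after the GC correction of all 6 libraries the log2 fold change was -0.99, over 0.05. *Sema3e*, the ligand of plexin D1, had 42.0, 16.5 and 39.4 against 26.5, 11.0 and 90.5, with the same order of *Robo1-/-* libraries and overlapping groups. *Sema6a* and *Sema6d*, transmembrane ligands of A-type plexins, did not overlap between genotypes. *Sema6a* had 92.9, 88.6 and 92.9 against 105, 105 and 152, with a log2 fold change of 0.37 (SE 0.29) that was 0.20 without gh18. *Sema6d* had 52.2, 74.5 and 82.6 against 105, 85.2 and 130, with 0.61 (SE 0.34) and 0.46 without gh18. Neither had an unadjusted limma p under 0.05.

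The plexins, the semaphorin receptors, held both guidance genes that were lower in *Robo1-/-* at an unadjusted p under 0.05. *Plxnb1* (kgCluster27198), the receptor of semaphorin 4D, lies on chromosome 9 from 108997950 to 109022425. The first 120 coding bases of its longest coding exon (exon 3 of 38, chr9:109002592-109002711, plus strand, 59.2% G or C) are shown, with G and C in capitals, as an example of GC-rich coding sequence. Reads were counted per gene, so the level of this stretch alone in gh18 was not measured.
Plxnb1: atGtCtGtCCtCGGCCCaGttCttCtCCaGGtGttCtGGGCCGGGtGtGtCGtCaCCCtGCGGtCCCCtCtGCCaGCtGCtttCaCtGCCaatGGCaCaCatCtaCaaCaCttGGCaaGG
*Plxnb1* gave normalized counts of 3906, 3313 and 3098 in wild-type libraries and 2623, 1736 and 1312 in *Robo1-/-*. Every *Robo1-/-* library lay below every *Robo1+/+* library, with a *Robo1-/-* mean of 1890 ± 669 (SD, n = 3) against 3439 ± 418. The log2 fold change was -0.92 (SE 0.29, unadjusted limma p = 0.015, adjusted p = 0.86, exact permutation p = 0.1, the smallest that 3 against 3 libraries allow). It was -0.68 without gh18 and -0.63 with the GC correction and without gh18, both at an unadjusted limma p under 0.05, but -0.30 with the GC correction of all 6 libraries, over 0.05. That correction turned gh18 from the lowest into the highest of the 6 libraries (log2 value 11.76). Leaving out gh03 was the only omission of 1 library that took the unadjusted p over 0.05.

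*Plxnd1*, the receptor of semaphorin 3E with a known part in vessel patterning, had 35.6, 33.7 and 26.3 in *Robo1+/+* against 19.6, 13.7 and 4.38 in *Robo1-/-*. The genotypes did not overlap, but the lowest library, gh18, held 3 reads. The log2 fold change was -1.47 (SE 0.57, unadjusted limma p = 0.036, adjusted p = 0.86, exact permutation p = 0.1). It was -0.90 without gh18 and -0.56 after the GC correction, the latter with an unadjusted p over 0.05, as was the case on omitting gh03, gh09, gh15 or gh12. The summed values of 9 endothelial markers were 649 to 2246 in *Robo1+/+* and 174 to 1157 in *Robo1-/-* libraries, and *Vwf* alone, at 570 to 2167 against 140 to 1054, made up most of each sum. *Cdh5*, *Kdr*, *Tie1* and *Cldn5* had at most 3 reads in any library, *Tek* at most 6 and *Esam* at most 12, while *Pecam1* had 23.4 to 89.8 and *Egfl7* 0 to 34.5 normalized reads. Their part in the *Plxnd1* difference was not tested. *Plxnb2*, the most abundant plexin, had 5033, 5988 and 5342 against 5795, 4942 and 1373. Its groups overlapped, only gh18 lay far below the others, and the log2 fold change of -0.68 (SE 0.53) was -0.02 without that library. *Plxna1* did not overlap either, with 1025, 1038 and 1186 against 1008, 983 and 340, but the nearest libraries of the genotypes were close together and its log2 fold change of -0.63 was -0.12 without gh18. *Plxna2* and *Plxna3* overlapped, with log2 fold changes of 0.28 and -0.47 that were 0.63 and 0.06 without gh18.

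The neuropilins, co-receptors of class 3 semaphorins, varied widely within each genotype. *Nrp1*, which is also a co-receptor for VEGF, had 57.3, 374 and 251 in *Robo1+/+* against 218, 906 and 96.3 in *Robo1-/-*. The highest *Robo1+/+* value was 6.53 times the lowest, the groups overlapped, and the log2 fold change was 0.60 (SE 0.97). *Nrp2* had 47.1, 11.8 and 16.0 against 17.3, 5.50 and 27.7, again with overlap and a log2 fold change of -0.54 (SE 0.74). The library with the lowest *Nrp1* in *Robo1+/+*, gh03, had the highest *Nrp2*, and in *Robo1-/-* the library with the highest *Nrp1*, gh12, had the lowest *Nrp2*.

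Of the ephrins, *Efna4* and *Efna5* are GPI-anchored A-type ligands that had fold changes of opposite sign. *Efna4* (kgCluster16131) lies on chromosome 3 from 89137312 to 89141950 and *Efna5* (kgCluster11215) on chromosome 17 from 62953533 to 63230666. The same part of both genes is shown, the first 120 bases of exon 2, the longest coding exon of each, with G and C in capitals: chr3:89139275-89139394 for *Efna4* (exon 2 of 4, 54.2% G or C) and chr17:63000364-63000483 for *Efna5* (exon 2 of 5, 48.3%), both on the minus strand. Aligned base by base, these stretches are identical at 66 of 120 positions (55%).
Efna4: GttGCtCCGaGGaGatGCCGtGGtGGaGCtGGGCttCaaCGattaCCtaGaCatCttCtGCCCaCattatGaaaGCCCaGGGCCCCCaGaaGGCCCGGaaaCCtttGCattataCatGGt
Efna5: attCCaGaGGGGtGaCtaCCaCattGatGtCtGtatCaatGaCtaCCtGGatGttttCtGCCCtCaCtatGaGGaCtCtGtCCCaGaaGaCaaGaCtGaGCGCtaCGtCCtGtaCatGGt
*Efna4* gave normalized counts of 98.0, 105 and 132 in wild-type libraries and 73.7, 65.0 and 10.2 in *Robo1-/-*. All *Robo1-/-* libraries lay below all *Robo1+/+* libraries, with gh18 far below the other 2, and the log2 fold change was -1.55 (SE 0.73, unadjusted limma p = 0.072, exact permutation p = 0.1). It was -1.00 after the GC correction and -0.67 without gh18, both at an unadjusted limma p under 0.05. *Efna5* had 262, 230 and 278 against 305, 369 and 614. Here every *Robo1-/-* library lay above every *Robo1+/+* library, and the log2 fold change was 0.68 (SE 0.32, unadjusted limma p = 0.069, exact permutation p = 0.1). It was 0.46 after the GC correction, at an unadjusted limma p under 0.05, and 0.39 without gh18, over 0.05. Without gh06 the log2 fold changes were -2.04 for *Efna4* and 0.89 for *Efna5*, both at an unadjusted limma p under 0.05. Direction was kept for both genes under each of the settings tried, and the difference between the genes was not tested.

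*Efna1*, the most abundant ephrin and a ligand of EphA2, had 1163, 1637 and 1313 against 1144, 1571 and 607. The genotypes overlapped with gh18 lowest, and the log2 fold change was -0.40 (SE 0.37), or -0.02 without gh18. *Efna1*, *Efna3* and *Efna4* are neighbours on chromosome 3, with 32.8 kb between *Efna1* and *Efna3* and 10.4 kb between *Efna3* and *Efna4*. *Efna3*, between them, had 40.7, 22.7 and 16.9 against 17.3, 12.8 and 0, with overlap of the groups and a log2 fold change of -2.04 (SE 1.11) that was -0.71 without gh18. *Efna2*, on chromosome 10, had a log2 fold change of -0.70 with overlap, -0.22 without gh18 and 0.02 after the GC correction.

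The transmembrane B-type ephrins all had unadjusted limma p-values over 0.05, the lowest for *Efnb3*, a ligand known as a midline barrier for axons. *Efnb3* had 22.9, 17.2 and 18.8 in *Robo1+/+* against 13.8, 8.24 and 11.7 in *Robo1-/-*, with no overlap but with few reads. Its log2 fold change was -0.77 (SE 0.40, unadjusted limma p = 0.094, exact permutation p = 0.1) and -0.14 after the GC correction. *Efnb1* had 198, 223 and 241 against 198, 214 and 36.5. Only gh18 lay apart, and the log2 fold change was -0.92 (SE 0.67) with gh18 and -0.09 without it. *Efnb2*, the ligand of EphB4, had 332, 261 and 401 against 287, 346 and 476, with a log2 fold change of 0.15 (SE 0.30).

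The Eph receptors were led by *Epha2*, an epithelial receptor tyrosine kinase on chromosome 4 from 140857155 to 140885299. *Epha2* gave normalized counts of 2193, 5494 and 5064 in wild-type libraries and 4088, 3936 and 887 in *Robo1-/-*. The lowest library of each genotype, gh03 and gh18, stood well below the other 2, the groups overlapped, and the log2 fold change was -0.70 (SE 0.66), or 0.03 without gh18. *Ephb3*, a receptor of B-type ephrins, was also lowest in gh03 and gh18 within the genotypes, with 762, 1714 and 1851 against 1411, 1608 and 268 and a log2 fold change of -0.66 (SE 0.72), or 0.17 without gh18. *Epha1* had 543, 792 and 730 against 646, 719 and 301, a log2 fold change of -0.39 (SE 0.38) that was 0.00 without gh18.

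*Ephb4*, the receptor of ephrin B2, had the tightest *Robo1+/+* values of the Eph receptors, at 870, 926 and 908, against 849, 809 and 400 in *Robo1-/-*. The genotypes did not overlap, though the nearest libraries differed by little, and the log2 fold change of -0.47 (SE 0.32, unadjusted limma p = 0.19, exact permutation p = 0.1) was -0.12 without gh18 and 0.23 after the GC correction. *Epha7*, a receptor of A-type ephrins, had 195, 159 and 209 against 221, 266 and 393. It was higher in every *Robo1-/-* library than in any *Robo1+/+* library, with a log2 fold change of 0.61 (SE 0.31, unadjusted limma p = 0.087, exact permutation p = 0.1) and 0.31 after the GC correction. *Ephb6*, a receptor without kinase activity named after its values were seen, had 106, 343 and 272 against 310, 381 and 11.7. Apart from gh18, which held few reads of it, its *Robo1-/-* libraries lay within or above the *Robo1+/+* range, and the log2 fold change of -0.91 (SE 1.29) was 0.68 without gh18. *Epha4* and *Ephb2*, the other tested receptors, overlapped between genotypes with log2 fold changes of 0.16 and -0.22, or 0.15 and -0.08 without gh18.

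**Figure D4:**
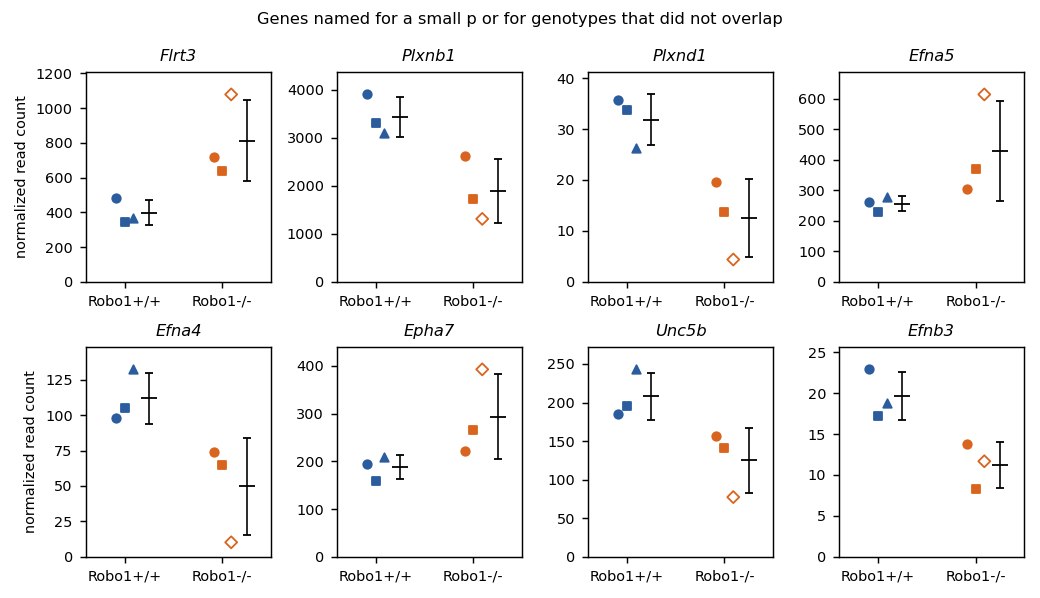
Normalized read counts of guidance genes named in the text in each library (points), with the mean and SD of 3 libraries per genotype, each panel on its own axis from 0. *Plxnb1* and *Efna4* lie lower and *Flrt3* and *Efna5* higher in all 3 *Robo1-/-* libraries, and gh18 is the lowest or highest *Robo1-/-* point in each of these.

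The netrins were represented by *Ntn1* and *Ntn4*, a netrin of basement membranes that binds laminins. *Ntn1* (chromosome 11 from 68022866 to 68214325) gave normalized counts of 1268, 2729 and 1962 in wild-type libraries and 3394, 2390 and 1018 in *Robo1-/-*. The highest and the lowest library were both *Robo1-/-*, and the log2 fold change was 0.09 (SE 0.49, unadjusted limma p = 0.85, exact permutation p = 1.0). After the GC correction it was 0.74, at an unadjusted limma p under 0.05, and the genotypes then did not overlap. Replicate gh18, the lowest library as deposited, was then the highest. Without gh18 the log2 fold change was 0.59, over 0.05. *Ntn4* had 54.7, 205 and 216 against 236, 335 and 89.0, with a log2 fold change of 0.51 (SE 0.69), 1.06 without gh18 and -0.13 without gh03.

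Among the netrin receptors, *Neo1*, which also binds repulsive guidance molecules, had 2053, 1498 and 1661 in *Robo1+/+* against 1416, 1362 and 2530 in *Robo1-/-*. The groups overlapped and the log2 fold change was -0.02 (SE 0.30), or -0.31 without gh18. *Unc5b*, a repulsive netrin receptor also known from blood vessels, had 184, 196 and 243 against 157, 141 and 77.3. Every *Robo1-/-* library was below every *Robo1+/+* library, with a log2 fold change of -0.78 (SE 0.35, unadjusted limma p = 0.062, exact permutation p = 0.1). It was -0.47 without gh18, -0.04 after the GC correction and, at an unadjusted limma p under 0.05, -0.97 without gh06. *Unc5c* had 10.2, 7.84 and 8.44 against 2.30, 11.0 and 16.1, with overlap and a log2 fold change of -0.16 (SE 0.67).

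*Flrt3* (kgCluster14792), a transmembrane leucine-rich repeat protein that binds UNC5 receptors and latrophilins, lies on chromosome 2 from 140476650 to 140497205. The first 120 coding bases of its longest coding exon (exon 3 of 3, chr2:140487323-140487442, minus strand, 53.3% G or C) are shown because this gene had the smallest p of the 45, with G and C in capitals, while its whole transcript has a GC content of 42.2%.
Flrt3: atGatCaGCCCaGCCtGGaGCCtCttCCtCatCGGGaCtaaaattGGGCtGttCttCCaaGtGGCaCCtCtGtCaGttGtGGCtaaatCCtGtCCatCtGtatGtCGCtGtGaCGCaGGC
*Flrt3* gave normalized counts of 481, 346 and 367 in wild-type libraries and 718, 638 and 1078 in *Robo1-/-*. All *Robo1-/-* libraries lay above all *Robo1+/+* libraries, at a mean of 812 ± 234 (SD, n = 3) against 398 ± 72.5, or 204% of *Robo1+/+*. The log2 fold change was 1.00 (SE 0.28, unadjusted limma p = 0.0092, adjusted p = 0.86, exact permutation p = 0.1), the smallest unadjusted p of the 45. It was 0.71 after the GC correction, 0.78 without gh18 and 0.74 with both, each at an unadjusted limma p under 0.05. Leaving out each of the 6 libraries in turn gave log2 fold changes of 0.78 to 1.16, each with an unadjusted limma p under 0.05. The summed hormone-sensing markers, given above, did not overlap between genotypes either, and their part in the *Flrt3* difference was not tested. The UNC5 partners of *Flrt3* had the values given above, and its latrophilin partners were among the genes of the next lists.

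The other genes of these pathways were taken from lists of co-receptors, partners and intracellular effectors. Of the 21 co-receptors and partners, 17 were tested and 0 had an unadjusted limma p under 0.05, with a median log2 fold change of -0.25, or -0.02 after the GC correction (edgeR and DESeq2 values for both lists together are given with the processing alternatives). Of the effectors, 59 tested rows had a median of -0.09, or 0.03 after the GC correction. Of these 59, 1 was higher at an unadjusted limma p under 0.05 and 0 were lower. Of all tested genes, 0.767% were higher and 0.92% lower, or 1.69% in either direction. The gene was *Ablim1*, which codes for an actin-binding LIM protein and gave normalized counts of 887, 877 and 740 in wild-type libraries and 1387, 1136 and 1163 in *Robo1-/-*. The genotypes did not overlap, with a log2 fold change of 0.56 (SE 0.20, unadjusted limma p = 0.029, adjusted p = 0.86, exact permutation p = 0.1) that was 0.52 after the GC correction and 0.59 without gh18.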

How the data were processed

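Sorted luminal progenitor cells gave 6 poly(A)+ libraries of 2 animals each, grouped by the genotype in the labels. The deposited values are a normalized signal: read counts per known-gene cluster that the authors divided by 1 size factor per library. Per the paper, the authors trimmed reads, removed repeats with bowtie2, mapped with TopHat to mm9 (NCBI37) and used DESeq2 to normalize. The sample records name Bowtie and DESeq for these steps, without versions. The counting tool and its use of strand are not given in the sources used here, so genes that overlap others or share sequence are uncertain. Every value was a whole number of reads within 0.006. The floor of 3 reads marks detection and does not remove counting error. limma (3.58.1, R 4.3.3; empirical Bayes with trend) compared log2(value + 1) for 13692 genes kept by filterByExpr of edgeR (4.0.16) on the recovered reads, and adjusted p over all of them (Benjamini-Hochberg). The added pseudocount shrinks fold changes of low genes, such as *Plxnd1* at -1.47, or -1.52 with a pseudocount of 0.5. A value near the floor in 1 library can enlarge them on this scale. *Efna3*, with 0 reads in gh18, was -2.04 with limma and -1.39 with DESeq2. An exact two-sided permutation test of 3 against 3 cannot go below 0.1. For the GC correction, a lowess curve (span 0.3) of the deviations of a library was fitted on the GC content of the longest coding transcript in GENCODE M1, available for 12531 tested genes, and subtracted. Sequences and coordinates come from the same build. DESeq2 (1.42.0), edgeR, TMM scaling, other pseudocounts and filters and each library left out were alternatives, and the GC correction combined with leaving out gh18 was added after seeing the data. Genes named with values were the 2 most abundant per kb in each family, those with an unadjusted p under 0.05 and the 5 next by p whose genotypes did not overlap. Other genes were named after their values were seen. The members and all lists were chosen with earlier results of these data known. Scripts were tested on simulated data.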

Additional observations from a re-analysis of the deposited data

How the results depend on the processing

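No guidance gene passed an adjusted p of 0.05 under any alternative run, and the lowest adjusted p of any of them was 0.55. Of the 45 tested genes, 3 had an unadjusted limma p under 0.05, and the range was 1 to 9 when single libraries were omitted (1 without gh03, where 0.95% of all genes were called, and 9 without gh06, where 6.44% were). The count of lower genes was 2, 1 after the GC correction and 0 to 7 on omitting single libraries (7 without gh06, where 4.89% of all genes were lower). The count of higher genes was 1, 3 after the GC correction, 2 with DESeq2 and 1 to 2 on such omissions. The partner and effector count was 1, 2 with edgeR, 2 with DESeq2, 4 with the GC correction and without gh18, and 0 to 6 on such omissions (6 without gh06). The shares of all genes called in these fits were 1.69%, 1.61%, 1.81%, 4.43% and 0.847% to 6.44%.

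Of the 45 genes, the log2 fold change took the other sign for 11 after the GC correction, 12 without gh18, 13 with both and 3 each with edgeR and DESeq2, always with an unadjusted p over 0.05. For the genes named by the rule the values were these. After the GC correction, *Sema4d* was 0.033 and *Ephb4* 0.23. With the GC correction and without gh18, *Sema4d* was 0.054, *Plxnb2* 0.031, *Efnb2* -0.075, *Epha1* 0.027, *Epha2* 0.074 and *Ephb3* 0.21. *Neo1* was 0.011 with edgeR and 0.031 with DESeq2, and *Unc5c* 0.12 and 0.14. On omitting single libraries, the ranges were -0.36 to 0.046 for *Sema4d*, -0.28 to 1.33 for *Nrp1*, -1.00 to 0.069 for *Nrp2*, -0.050 to 0.31 for *Efnb2*, -0.62 to 0.0033 for *Epha1*, -1.12 to 0.027 for *Epha2*, -1.12 to 0.17 for *Ephb3*, -0.28 to 0.59 for *Ntn1*, -0.13 to 1.06 for *Ntn4*, -0.31 to 0.14 for *Neo1* and -0.64 to 0.55 for *Unc5c*. The cause was not tested. No paired analysis was run because the labels give no pair or litter, although the females were littermates or matched for age. The count without overlap was not computed for edgeR, DESeq2 or TMM scaling. With 3 libraries per genotype, differences near the SE given with each gene were not detectable. Differences well above the SE did not pass the adjusted p either. *Flrt3* at 1.00 (SE 0.28) and *Plxnb1* at -0.92 (SE 0.29) both had an adjusted limma p of 0.86. The SE includes counting error, which weighs most on genes under about 10 reads per library.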
